A study of Mus musculus and Homo sapiens with 6 samples.

Results

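Epithelial-mesenchymal transition (EMT), the change of epithelial cells into motile mesenchymal cells, is driven by a small set of transcription factors, and the open chromatin around 9 genes for such factors is described here in unstimulated mouse mammary epithelial cells. The genes are Snai1, Snai2, Zeb1, Zeb2, Twist1, Twist2, Tcf3, Tcf4 and Prrx1, given as a fixed list. They are 9 of the 21900 protein-coding genes of the RefSeq table used for positions. Every ATAC-seq peak inside one of these genes or within 50 kb of it was taken. ATAC-seq maps open chromatin by letting the Tn5 transposase cut and tag accessible DNA. The cells were NMuMG, an established epithelial line of the mouse mammary gland. All groups shared the NMuMG genotype, fewer than 10 passages, culture in DMEM with 10% serum and a labelled time of 0 h, and no added growth factor is named in the labels. The groups differed in the number of cells put into the reaction, which was 25000, 50000, 75000 or 100000, with 1 library at each number. No value therefore has a replicate error, no difference between cell numbers was tested, and the cells of 1 line stand for mammary epithelium. The series' 2 samples of human MDA-MB-231 cells were not used here.

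The factors on the list lower the expression of junction genes such as the E-cadherin gene and raise that of mesenchymal genes. The SNAIL proteins (Snai1 and Snai2) and the ZEB proteins (Zeb1 and Zeb2) are zinc-finger repressors that bind short E-box motifs in the promoters of epithelial genes. The TWIST proteins (Twist1 and Twist2) are basic helix-loop-helix factors that pair with E proteins, the class to which Tcf3 and Tcf4 belong, and Prrx1 is a homeobox factor. NMuMG cells are a common model of EMT, which TGF-beta induces in them.

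The promoter windows looked up for 6 of the genes were each under a peak in every library or in none, and the sequences of both kinds are printed so that they can be compared. RefSeq promoter windows (GRCm38.p6, the assembly of the mm10 build), from 250 bases before to 50 after an annotated start, were matched by symbol for Snai1, Zeb2, Twist1, Twist2, Tcf3 and Prrx1. The windows of Snai1 (chr2:167537945-167538244, plus strand), of the innermost of the 4 listed starts of Zeb2 (chr2:45110228-45110527, minus strand) and of Tcf3 (chr10:80433586-80433885, minus strand) were overlapped by a peak in all 4 libraries. Those of Twist1 (chr12:33957421-33957720, plus strand), Twist2 (chr1:91801211-91801510, plus strand) and Prrx1 (chr1:163313601-163313900, minus strand) were overlapped by none, and the same held for the other 3 starts of Zeb2. Capitals mark matches, on either strand, to the E-box CACCTG of SNAIL and ZEB factors, CATCTG, any E-box CANNTG (which includes both), the AP-1 motif TGANTCA, the TEAD motif GGAATG and the SMAD motif CAGACA.
Snai1 promoter: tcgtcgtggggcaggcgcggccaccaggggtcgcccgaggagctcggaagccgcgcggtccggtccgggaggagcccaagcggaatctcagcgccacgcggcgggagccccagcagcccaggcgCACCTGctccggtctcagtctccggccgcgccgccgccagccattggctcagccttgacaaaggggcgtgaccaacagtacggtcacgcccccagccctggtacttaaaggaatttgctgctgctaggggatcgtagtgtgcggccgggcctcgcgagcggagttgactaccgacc
Zeb2 innermost promoter: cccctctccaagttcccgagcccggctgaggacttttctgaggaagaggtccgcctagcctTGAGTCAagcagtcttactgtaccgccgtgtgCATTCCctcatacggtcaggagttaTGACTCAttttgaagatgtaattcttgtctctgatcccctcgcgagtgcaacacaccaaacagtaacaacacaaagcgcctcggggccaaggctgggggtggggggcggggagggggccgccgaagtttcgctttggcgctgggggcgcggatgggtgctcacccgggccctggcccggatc
Tcf3 promoter: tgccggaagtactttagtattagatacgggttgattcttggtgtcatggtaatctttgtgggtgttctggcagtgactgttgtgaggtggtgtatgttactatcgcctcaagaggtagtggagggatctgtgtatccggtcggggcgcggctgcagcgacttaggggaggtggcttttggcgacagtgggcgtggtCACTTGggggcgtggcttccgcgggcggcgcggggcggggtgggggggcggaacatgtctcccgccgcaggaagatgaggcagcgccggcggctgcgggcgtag
Twist1 promoter: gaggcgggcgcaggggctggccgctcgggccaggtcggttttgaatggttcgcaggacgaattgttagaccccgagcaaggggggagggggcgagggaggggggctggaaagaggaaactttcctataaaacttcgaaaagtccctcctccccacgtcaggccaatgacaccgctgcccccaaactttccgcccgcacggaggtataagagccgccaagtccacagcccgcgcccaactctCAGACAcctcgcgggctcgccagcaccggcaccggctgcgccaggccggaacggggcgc
Twist2 promoter: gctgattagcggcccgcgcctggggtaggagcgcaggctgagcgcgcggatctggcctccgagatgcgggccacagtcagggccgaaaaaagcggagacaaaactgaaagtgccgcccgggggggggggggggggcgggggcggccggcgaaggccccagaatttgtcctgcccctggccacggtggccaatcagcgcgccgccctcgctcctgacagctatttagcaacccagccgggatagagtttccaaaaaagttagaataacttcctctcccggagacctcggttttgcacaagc
Prrx1 promoter: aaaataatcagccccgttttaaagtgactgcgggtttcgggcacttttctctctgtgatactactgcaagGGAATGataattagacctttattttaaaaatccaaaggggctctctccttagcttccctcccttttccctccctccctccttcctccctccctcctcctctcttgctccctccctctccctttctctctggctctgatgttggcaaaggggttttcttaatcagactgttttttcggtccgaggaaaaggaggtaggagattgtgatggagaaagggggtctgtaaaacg

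Of the 32851 promoter windows in the RefSeq table, 29.5% were overlapped by a peak in all 4 libraries. This share was higher where the window held more CpG dinucleotides, up to the class of 20 to 29, being 2.36% for windows with 0 to 4 CpGs, 10.5% for 5 to 9, 46.9% for 10 to 19, 71.9% for 20 to 29 and 69.0% for 30 and above. The Snai1 window held 34 CpGs, that of Tcf3 25 and the innermost of Zeb2 19, so the open promoters came from CpG-rich classes. The windows without a peak at Prrx1 and at the outer 3 starts of Zeb2 held 6 and 8 or 9, in a class where 82.7% of windows had no peak in any library. The Twist1 window held 27 CpGs and that of Twist2 held 25, and neither had a peak, which was the case for 19% of windows with 20 to 29 CpGs. Among the 6 members with a window, Twist1 and Twist2 are thus those whose promoters were CpG-rich without a listed peak. Tcf3, with as many CpGs as Twist2, had a peak in every library. No window was matched for Snai2, Zeb1 and Tcf4.

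**Figure D1:**
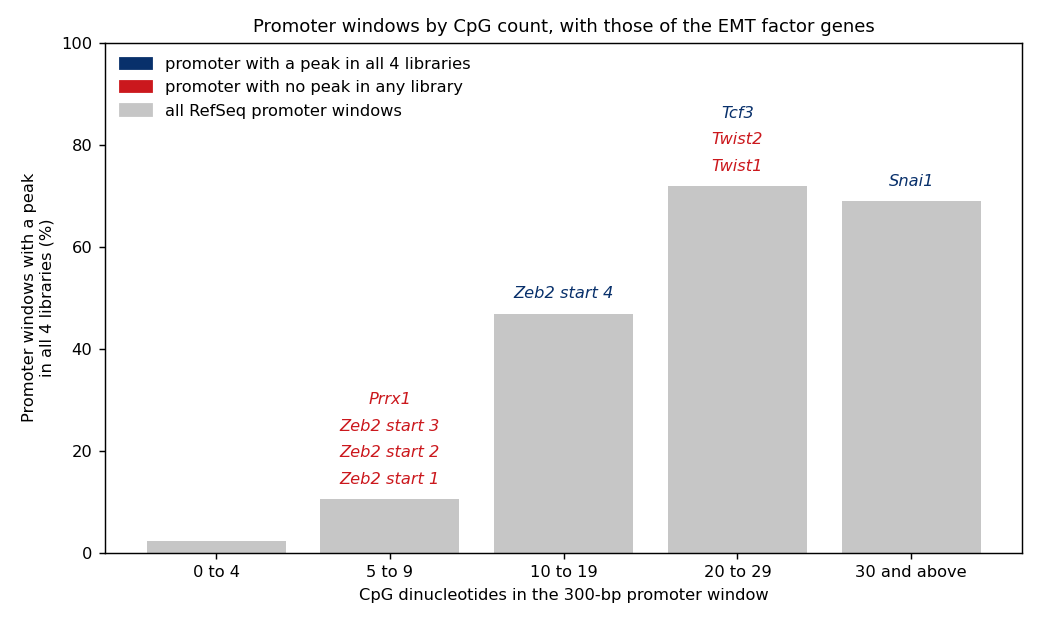
Grey bars give the share of all RefSeq promoter windows of 300 bp with a peak in all 4 libraries (y axis, %), by the number of CpG dinucleotides in the window (x axis). Member promoters are written above their class, blue where all 4 libraries had a peak and red where none had; the starts of Zeb2 are numbered from the upper end of the gene. Twist1 and Twist2 are red in the class where 71.9% of windows were open.

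Motif matches differed between the open promoters. The Snai1 window held 1 CACCTG, at position -126 from the annotated start, a motif present in 20.2% of all promoter windows. The innermost Zeb2 window held AP-1 matches at positions -189 and -132, TGAGTCA and TGACTCA, and 7.81% of all windows held at least 1. It also held a TEAD match on the minus strand of the printed sequence, CATTCC, a motif in 14.7% of all windows. The Tcf3 window held 1 E-box, CACTTG, at position -54, where 72.3% of all windows hold any E-box. Among the windows without a peak, Twist1 held 1 SMAD match (in 21.0% of all windows), Prrx1 held 1 TEAD match, and Twist2 held none of the 6 motifs. CATCTG, found in 17.2% of all windows, was in none of the member windows. These matches describe letters in a window and not binding.

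The lists held 38878, 43832, 41509 and 45530 peaks at 25000, 50000, 75000 and 100000 cells, each with a whole-number score given by the authors' peak caller and with no score below 8. No read counts come with them, so the depth is unknown, and scores were compared only within a list, as a percentile of all its peaks. Epithelial markers had a peak in or within 1 kb of the gene in all 4 libraries for 6 of 8 genes, Cdh1, Krt8, Krt18, Elf3, Jup and Dsp, while Epcam had none and Cldn7 a single peak with a score of 8 at 25000 cells. The same count was 3 of 8 for fibroblast, 1 of 8 for blood and 2 of 8 for endothelial markers, against 54.5% of all protein-coding genes. The fibroblast genes with such a peak were Col1a1 (33, 30, 29 and 34), Pdgfra (13, 16, 20 and 21) and Pdgfrb, while Col1a2, Col3a1, Dcn, Lum and Thy1 had none. Of the blood genes Cd68 (14, 28, 23 and 27) had one and the pan-leukocyte gene Ptprc had none, and of the endothelial genes Cdh5 (47, 54, 50 and 57) and Vwf had one. The count asks for some peak in each library, not for the same one. At Pdgfrb and Vwf no single region was in all 4 libraries.

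When peaks that overlapped by at least 1 bp were merged over the 4 lists, the windows of the 9 genes contained 60 open regions. Of these, 29 (48.3%, 95% Clopper-Pearson interval 35.2 to 61.6, counting error only) had a peak in all 4 libraries, 11 in 3, 7 in 2 and 13 in 1. Over the whole genome 46.3% of 55702 regions had a peak in all 4 libraries, so the share in the windows was close to the background. Of the 60 regions, 17 (28.3%) scored at or above the median of the list in every library, compared with 26.3% of all regions. A region shared by all libraries was found in the window of 8 of the 9 genes, Twist1 being the exception, where 74.6% of all protein-coding genes had one. A peak in the gene or within 1 kb of it was found in all 4 libraries at the same 8 genes, beside the 54.5% of all protein-coding genes. This count was not matched for gene length, and Tcf4, Zeb1 and Zeb2 span 345, 184 and 134 kb. Within 1 kb of an annotated outer end a peak was found in all 4 libraries at 4 genes, namely Snai1, Snai2, Tcf3 and Tcf4, beside 43.8% of all genes. No library had a peak there for Zeb2, Twist1, Twist2 and Prrx1, which are 4 of the 9, beside 47.4% of all genes.

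**Figure D2:**
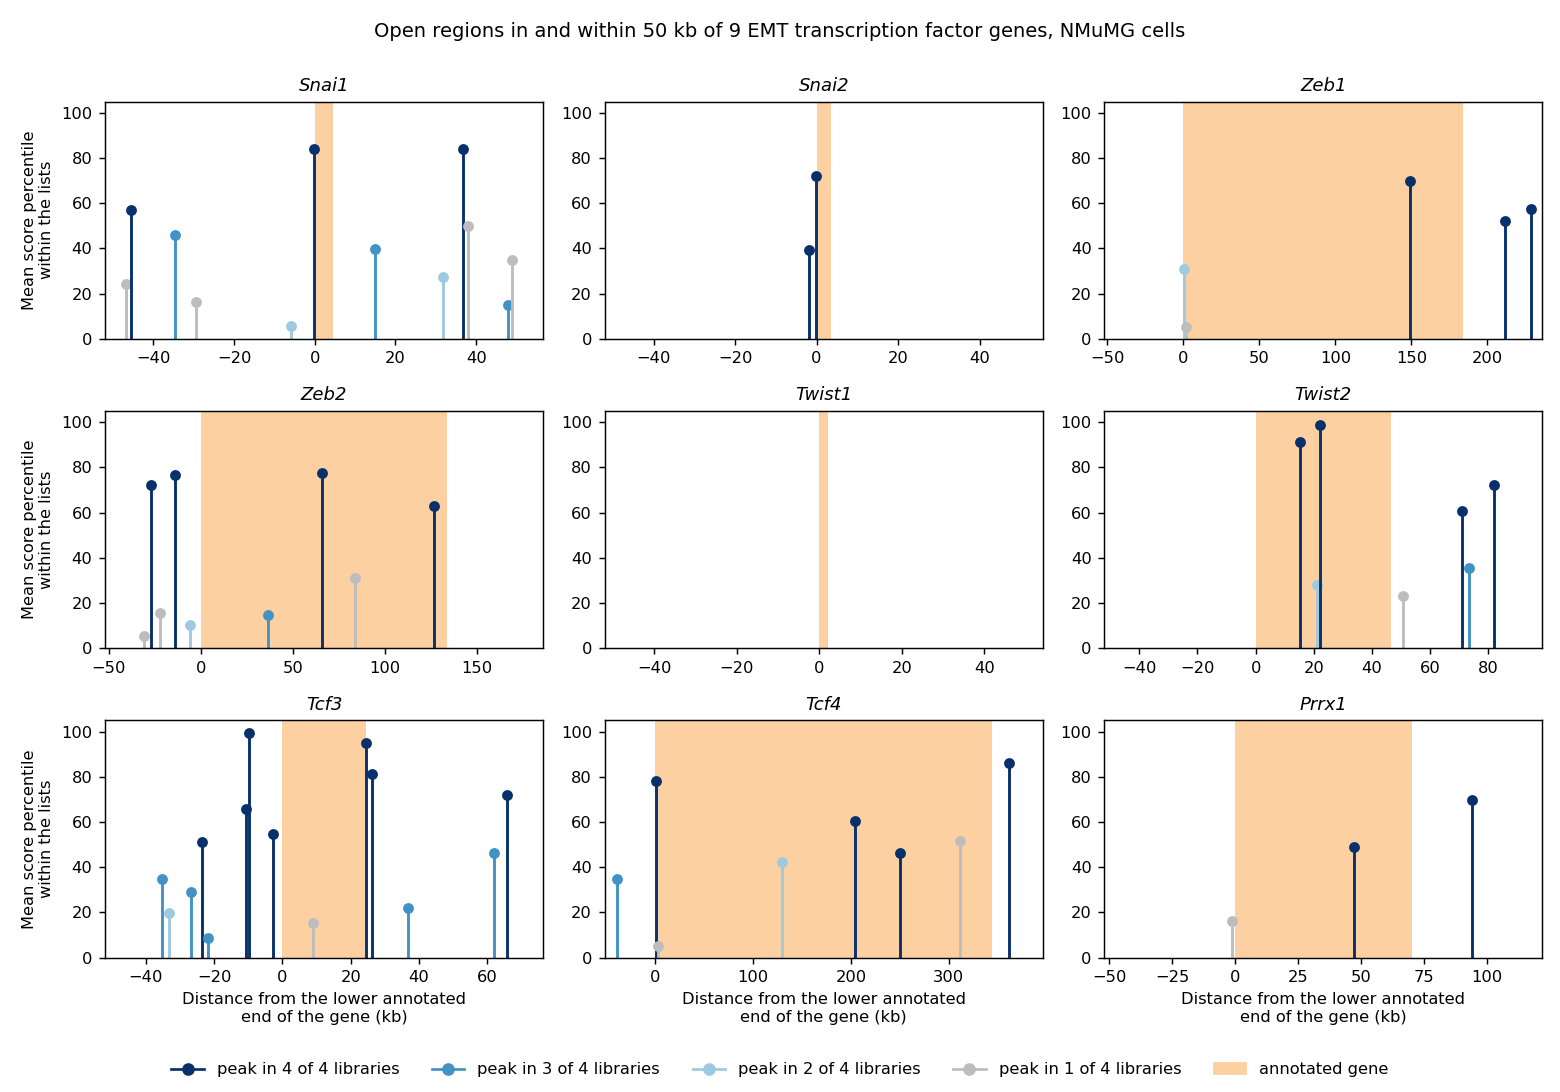
Each panel shows 1 gene, with distance from its lower annotated end on the x axis (kb, lower meaning the smaller coordinate) and the mean score percentile of each region over the libraries that had it on the y axis. The shaded band is the annotated gene and the colour gives the number of libraries with a peak. Twist1 has no region, Snai2 has both of its regions at 1 end, and the high regions of Twist2 stand in the middle of the gene.

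The number of shared regions per 100 kb of window put the genes in the order Tcf3 (5.63), Snai1 (2.87), Twist2 (2.73), Snai2 (1.93), Zeb2 (1.71), Prrx1 (1.18), Zeb1 (1.06), Tcf4 (0.90) and Twist1 (0). Their median was 1.71, and that of all protein-coding genes was 1.72. With ties counted at their midpoint, Tcf3 ranked above 89.5% of all protein-coding genes. No gene lay below Twist1, and its rank of 12.7% is the midpoint of the genes tied at 0. A shared region in the window was found for 74.6% of all protein-coding genes. As 1 region more or fewer would change the order of most neighbours, and no replicate gives an error, the neighbours were not told apart. The Tcf3 window is dense in genes, and without regions within 1 kb of an end of another gene its shared regions numbered 3 in place of 7.

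**Figure D3:**
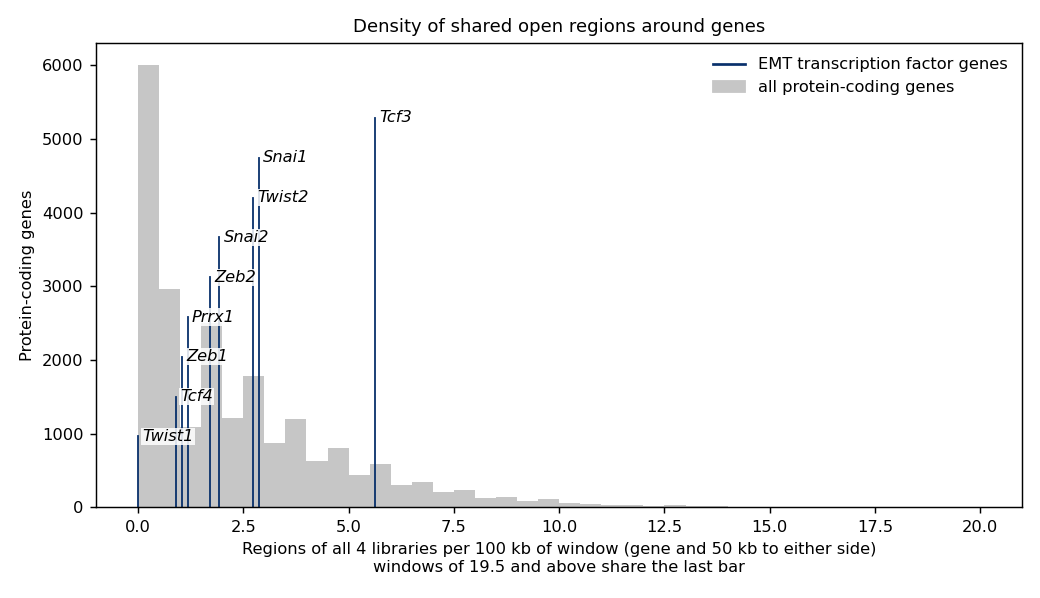
Grey bars count protein-coding genes (y axis) by the number of regions of all 4 libraries per 100 kb of gene and 50 kb to either side (x axis). Lines of differing height mark the 9 EMT factor genes. Tcf3 lies at 5.63, the 7 genes from Tcf4 to Snai1 between 0.90 and 2.87, and Twist1 at 0.

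Snai1 encodes the SNAIL repressor that silences the E-cadherin gene, and its promoter was open in every library. The region at 167537651 to 167538400 on chromosome 2 covers the annotated start and scored 27, 42, 41 and 40 at 25000, 50000, 75000 and 100000 cells, the order in which all scores are given. It stood at the 77.2, 86.3, 87.2 and 84.8 percentile of its lists, so it ranked high in every list, and lowest at 25000 cells. No other region touched the gene, which is 4.62 kb long.

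With the promoter, the window of Snai1 contained 12 regions, of which 3 were in all libraries and 4 in a single one. The region at 167574601 to 167575350, 31.8 kb above the gene and inside the long non-coding RNA genes Gm11476 and Gm31619, scored 36, 30, 41 and 41, as high as the promoter. The third shared region, at 167492201 to 167493300 with 14, 23, 13 and 29, lay where the ends of the neighbours Spata2 and Rnf114 overlap. Inside Rnf114, 34.0 kb below Snai1, a region at 167503051 to 167504200 scored 12, 19 and 14 from 50000 cells up. At the end of Gm11476, 9.89 kb above Snai1, a region scored 11, 12 and 17 in the same libraries. Neither was listed at 25000. Without the 25000-cell library, 5 regions of the Snai1 window were shared by the remaining lists in place of 3. Peaks in the window numbered 6, 7, 9 and 14, and for 5 of the 12 regions Snai1 was the nearest protein-coding gene.

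Snai2, also called Slug, is the paralogue of Snai1 that marks the neural crest and basal mammary cells. It lay alone in its window on chromosome 16, with no other annotated gene within 50 kb. Its 2 regions were both in all libraries and stood side by side. The first, at 14705201 to 14706150 over the lower end of the gene, scored 23, 23, 24 and 35, with percentiles between 66.6 and 80.9. The second, at 14703701 to 14704350 and 1502 bp below the gene, scored 12, 18, 13 and 10, and was thus near or under the median of its lists. Beyond the window, the nearest region of all libraries was 230 kb above the gene. Both SNAIL genes thus had an end under a peak in every library, with mean percentiles of 83.9 at Snai1 and 72.1 at Snai2, while the surroundings held 11 further regions at Snai1 and 1 at Snai2.

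Zeb1 and Zeb2 encode large zinc-finger and homeobox repressors that the miR-200 family of microRNAs holds down in epithelial cells. Zeb1 spans 184 kb of chromosome 18 and had 5 regions in its window. At its lower end, which overlaps the non-coding gene Gm10125, a region at 5591351 to 5592350 scored 9 at 50000 and 15 at 100000 cells and was not listed at 25000 and 75000. A region with a score of 8 lay 1674 bp inside the gene at 25000 cells alone. The lower end of Zeb1 thus had a peak within 1 kb in 2 of the 4 libraries, neither above its list's median.

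The regions of Zeb1 that all libraries had lay elsewhere. One was deep in the gene, at 5740201 to 5740850, with 30, 15, 25 and 33, at percentiles from 47.2 to 80.9. The others were 27.2 and 44.0 kb above the gene, with 14, 23, 14 and 16 and with 18, 17, 26 and 14. None of the 3 reached the median score of the list in every library, and the order of their scores differed between libraries. Zeb1 was the nearest protein-coding gene to all 5 regions of its window.

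Zeb2, also called SIP1, had 9 regions over its 134 kb and the flanks, 4 of them in all libraries. The highest by mean percentile was at 45049101 to 45049800 inside the gene, with 43, 28, 30 and 24, and it ranked at the 90.7 percentile at 25000 cells and at the 67.7 percentile at 100000. The region over the innermost start, at 45109201 to 45110650, scored 25, 15, 23 and 21 and lay within 1 kb of the antisense gene Zeb2os. This is the region that covers the printed Zeb2 promoter with its pair of AP-1 matches. It was merged from 2, 3, 1 and 3 peaks in order of cell number. Where a library had several, the score is the highest of them and need not be that of the peak over the printed window.

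Below Zeb2 a further pair of shared regions had even scores, 29, 27, 31 and 30 at 44969101 to 44969750, and 27, 28, 28 and 21 at 44956101 to 44956700. Its outermost start had no peak in any library. Peaks in the window numbered 10, 8, 6 and 7, so the most were listed at 25000 cells, in the shortest list. The other 5 regions scored no higher than 11.

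Twist1 encodes a basic helix-loop-helix factor of mesoderm and neural crest. No library had a peak in its 2.16 kb, nor within 50 kb of it, which held for 17.8% of all protein-coding genes. The nearest region of any library was 81.0 kb above the gene, with a score of 15 at 75000 cells alone, and the nearest in all libraries was 184 kb above it, with 21, 22, 33 and 24. Its window also contains Ferd3l and Gm40383, and these had no peak either. The lists hold only scores of 8 and above, so lower signal at Twist1 would not show.

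Twist2, also called Dermo1, is the paralogue of Twist1 and contrasted with it. Inside the gene, 21.8 kb above the annotated start, the region at 91823251 to 91824050 on chromosome 1 scored 79, 117, 91 and 99. It lay between the 98.8 and 99.4 percentile of every list, the highest rank of any region inside a member gene. A second region inside the gene, at 91816501 to 91817250, scored 60, 50, 41 and 50, at percentiles from 87.2 to 96.4. Both lay within the non-coding gene Gm46117, which is annotated inside Twist2, and neither was within 1 kb of an end of Gm46117.

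Above Twist2 there were 2 more shared regions, with 22, 35, 25 and 24 at 34.9 kb from the gene and 20, 20, 14 and 27 at 24.1 kb. A region at 26.5 kb scored 9, 11 and 20 from 50000 cells up and was not listed at 25000. The score of 20 was the highest in any library among the 31 regions of the 9 windows that were not in all libraries. The window below the start of Twist2 contained no region. Twist2 thus had listed peaks within and above the gene, and none over its annotated promoter, in all 4 libraries.

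**Figure D4:**
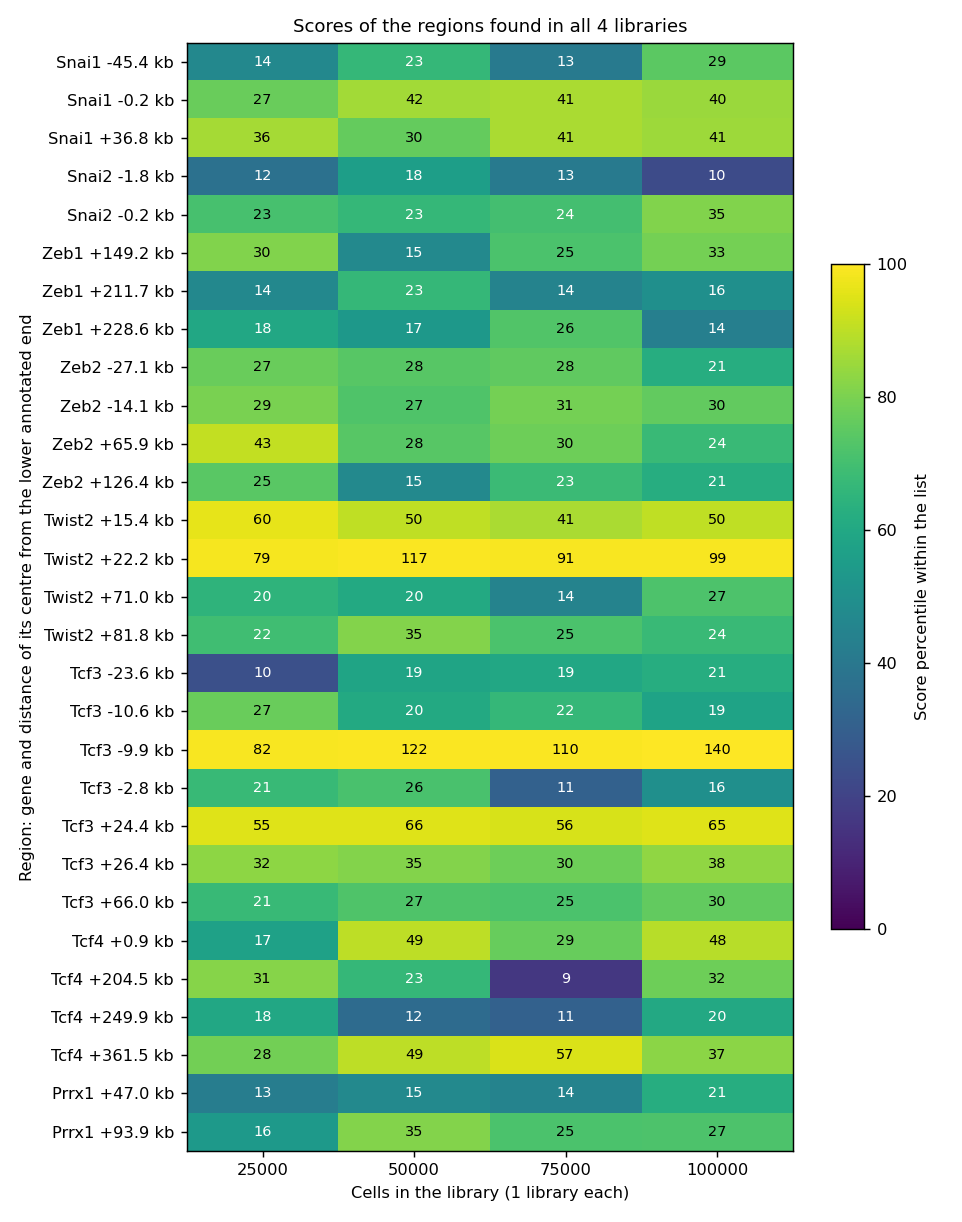
Rows are the 29 regions found in all 4 libraries, named by gene and by the distance of their centre from the lower annotated end (kb), and columns are the libraries by cell number. Numbers are the authors' scores and colour is the percentile of that score within its own list. The brightest rows are the Twist2 region at +22.2 kb, the Tcf3 start at +24.4 kb and the region at -9.9 kb from Tcf3, which is the end of Mbd3.

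Tcf3 encodes the E proteins E12 and E47, partners of the TWIST factors that can also repress the E-cadherin gene. Its start, at the upper end of the gene on chromosome 10, was covered by a region at 80433451 to 80434400 with 55, 66, 56 and 65. These lay between the 93.9 and 95.2 percentile and varied less than at the other 3 genes with a peak within 1 kb of an outer end in all libraries. A second shared region, 1.63 kb above the gene at 80435601 to 80436250, scored 32, 35, 30 and 38. Inside the gene there was otherwise 1 region, with a score of 9 at 100000 cells alone.

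The Tcf3 window had 14 regions, the most of any member, and many belonged to neighbours. The highest score in it, 82, 122, 110 and 140 at 80399251 to 80400050, was at the upper end of Mbd3, a subunit gene of the NuRD complex, with a region of 27, 20, 22 and 19 adjoining it. Other shared regions stood at the end of Uqcr11, a respiratory chain gene, with 21, 26, 11 and 16, inside Mex3d with 10, 19, 19 and 21, and at Gm40716 with 21, 27, 25 and 30. For 4 of the 14 regions Tcf3 was the nearest protein-coding gene.

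Tcf4 encodes the E protein E2-2 and is not the Wnt effector of the same alias. It is the longest member, at 345 kb of chromosome 18. The region next to its lower end, at 69343901 to 69344750, scored 17, 49, 29 and 48, which is the 57.2 percentile at 25000 cells and 90.0 at 50000. With 1 library per cell number this spread cannot be set against that between repeats. The region with the highest mean percentile in the window was outside the gene, 16.6 kb above it at 69704551 to 69705250, with 28, 49, 57 and 37, though at 25000 and 100000 cells a region inside the gene ranked above it.

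Inside Tcf4 the shared regions were weaker and uneven. That at 69547601 to 69548250 scored 31, 23, 9 and 32, so it was near the lowest listed score at 75000 cells and well above the median at 25000 and 100000. Another at 69593001 to 69593600 scored 18, 12, 11 and 20. A region at 69472251 to 69472800 was listed at 25000 (18) and 75000 cells (10) alone. Tcf4 was the nearest protein-coding gene to all 8 regions.

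Prrx1, a homeobox gene of limb and head mesenchyme, had 3 regions in its window, 2 of them in all libraries. Over its 70027 bp a single region was listed, at 163291851 to 163292450 inside the gene and inside the non-coding gene Gm20471, with 13, 15, 14 and 21. Its percentiles ran from 42.2 to 62.3, and their mean of 49.2 was the lowest among the highest peaks in or beside the 8 genes that had one. The other shared region was 23.5 kb above the gene, at 163338601 to 163339400, with 16, 35, 25 and 27, at percentiles from 53.9 to 81.3. A peak with a score of 9 lay 1.17 kb below the gene at 75000 cells alone.

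Read by place, 5 of the 60 regions lay within 1 kb of an outer end of the member gene and 4 of them were in all libraries. Elsewhere inside the genes it was 8 of 16, outside the genes at the end of another gene 5 of 9, and in the remaining flanks 12 of 30. The medians of the mean percentile were 78.3, 47.8, 54.8 and 35.2 in that order. Over all 55702 regions 46.3% were in all 4 libraries, but these were not divided by place. Whether the differences between places are particular to the EMT factor genes was thus not tested. For 4 genes, Zeb1, Zeb2, Twist2 and Prrx1, no outer end had a peak within 1 kb in all libraries although the gene or its flanks had shared regions. For 42 of the 60 regions the member was the nearest protein-coding gene, and no data here link a region to the gene it acts on.

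By library, 42, 43, 45 and 46 of the 60 regions were listed, in order of cell number, which is 70%, 71.7%, 75% and 76.7%. Of all regions 64.1%, 72.5%, 68.2% and 74.9% were listed, an order that did not follow the cell number throughout. Of the 11 regions in 3 libraries, the missing one was 25000 cells for 6, 50000 for 3, 75000 for 2 and 100000 for none. Over the genome the missing library was 25000 cells for 39.8% of the 7416 regions in 3 libraries, 50000 for 18.4%, 75000 for 27.4% and 100000 for 14.4%. Regions listed in 1 library alone numbered 4, 3, 3 and 3 in the windows, and over the genome they were 4.53%, 7.44%, 5.77% and 8.48% of all regions, fewest at 25000 cells. The 25000-cell library had the shortest list, and the part of depth in these counts was not tested.

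Among the other genes of the pathway, 59 of 80 protein-coding genes had a peak in or within 1 kb of the gene in all 4 libraries, beside 8 of the 9 EMT factors and 54.5% of all protein-coding genes. These counts were not matched for gene length. Of 12 other EMT transcription factor genes 7 had such a peak, led by the chromatin protein gene Hmga2 (70, 70, 63 and 92 for its highest peak), Sox4 (38, 45, 37 and 41) and Sox9 (22, 33, 35 and 56). The 5 without any peak were Prrx2, Foxc2, Gsc, Klf8 and Tbxt, where 35.8% of all protein-coding genes had none. Prrx2, the paralogue of Prrx1, thus had no listed peak in the gene, and Snai3, the paralogue of the SNAIL genes, scored 15, 22, 15 and 22.

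Genes for signals upstream of the EMT factors had such a peak in 14 of 14 cases, and those for corepressors and for the turnover of SNAIL proteins in 13 of 14. At Ctnnb1, of the upstream list, no single region in or beside the gene was in all 4 libraries. Stat3 (70, 104, 87 and 88), Rela (58, 101, 69 and 85) and the TGF-beta effector gene Smad3 (59, 61, 53 and 55) led the upstream list. Btrc (135, 178, 134 and 166) and Gsk3b (88, 109, 77 and 116), whose products mark SNAIL for degradation, and the corepressor gene Sin3a (63, 79, 66 and 67) led the second list, and Kdm1a was listed from 50000 cells up with 16 each time. Of 12 genes for epithelial factors that oppose EMT, 8 had a peak in all libraries, among them Elf3, Id2 and Id1, while Ovol1, Ovol2, Elf5 and Esrp1 had none.

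Genes that the EMT factors act on had such a peak in all 4 libraries at shares near the 54.5% of all protein-coding genes. Of 14 epithelial targets it was 9 (64.3%), with Tjp1 (77, 74, 69 and 78), Muc1 (76, 70, 63 and 72) and Krt8 highest and Cldn3 and Epcam without a peak. Of 14 mesenchymal targets it was 8 (57.1%), with Vim, S100a4 and Col1a1 (33, 30, 29 and 34) highest and Cdh11, Mmp2 and Acta2 without a peak. Of 7 genes for microRNAs that counter the EMT factors (the miR-200 family, miR-205 and miR-34a), none had a peak within 1 kb in all libraries, and Mir141 had 1 with a score of 8 at 50000 cells. These hairpin genes are short, so that the share for protein-coding genes is no background for them. Within 50 kb, Mir200c and Mir141 each had 15 regions, 10 of them in all libraries. Mir200a, Mir200b and Mir429 each had 3, with none in all libraries. Mir205 had 6 and Mir34a 5, with 2 in all libraries at each. Ends of other genes in these windows were not looked up.

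**Figure D5:**
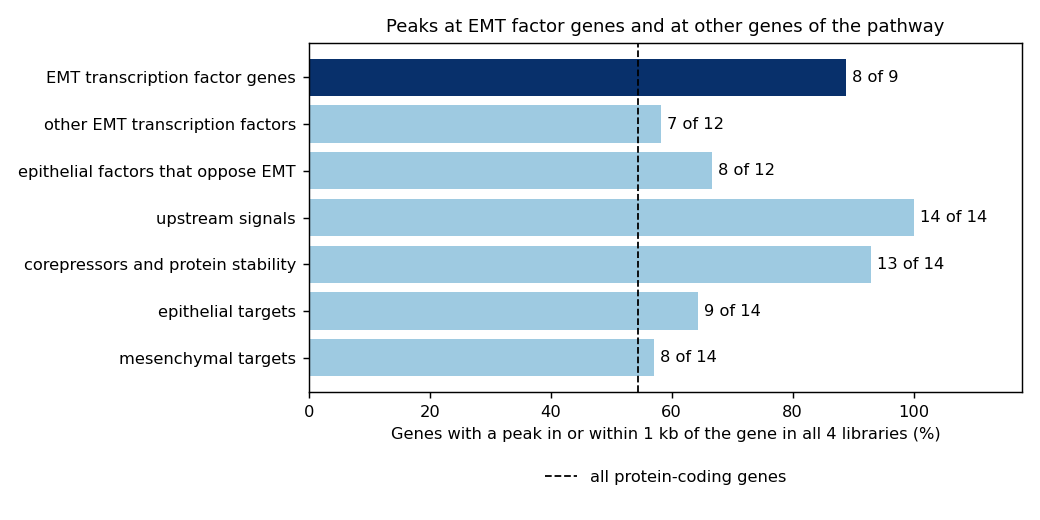
Bars give the share of genes in each list (x axis, %) with a peak in or within 1 kb of the gene in all 4 libraries, with the counts beside them, and the dashed line is the share of all protein-coding genes, 54.5%. The EMT factor genes stand at 8 of 9, the upstream signals at 14 of 14 and the mesenchymal targets at 8 of 14. Gene length was not matched between the lists and all protein-coding genes.

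By the score percentile of the highest peak in or beside the gene, averaged over the 4 libraries, the pathway genes most like the members were looked up among the 59 with a peak in every library. Twist2 was closest to Stat3, with a mean absolute difference of 0.489 percentile points, and Tcf3 to Smad3, with 1.45. Snai2 was closest to Krt18 (3.17), Snai1 to Sox4 (3.93) and Tcf4 to Hdac2 (3.98). Zeb2 with Col1a1 (5.66), Zeb1 with Ehf (6.43) and Prrx1 with Foxq1 (7.38) had no gene as close. Percentiles near the top of a list can differ only by little. The small differences at Twist2 and Tcf3 are thus not comparable with those of genes ranked lower. The measure uses 4 libraries of 1 cell line and says nothing of shared control.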

How the data were processed

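ATAC-seq peak lists of 4 NMuMG libraries, 1 per cell number, were used. Per the submitters' processing notes, Bowtie 0.12.8, cutadapt, bedtools 2.17.0, Picard 1.107 and SAMtools were used and the builds were mm10 and hg19, of which mm10 is the mouse one. Per the labels' protocols, DNA was amplified by 8 PCR cycles. How the peak caller was set, and whether reads were shifted for Tn5 or thinned, is not given in the sources used here. Each library's list was deposited with a whole-number score per peak, from 8 upward; what the score is computed from is not given, and the depth of the libraries is unknown. Peaks were counted as deposited.

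Positions came from RefSeq (GRCm38.p6), with 49997 gene entries and 32851 promoter windows; Tbxt was matched through a synonym, all other listed genes by symbol. Outer ends are the lowest and highest annotated coordinates. Peaks of the 4 lists were merged where they overlapped by at least 1 bp, with python 3.11.15, pandas 2.3.3 and scipy 1.17.1. The score of a region in a library is the highest among its peaks there. The overlap functions were tested on simulated data. By the rule for naming, each gene was described with up to 4 shared regions of the highest mean percentile and those at its ends. Up to 2 regions not in all libraries, those with the highest scores, were added. Per pathway list, up to 3 genes with the highest mean percentile and up to 2 without a peak were named. Further regions and genes were named after their values were seen. The classes by CpG number were also set after the data were seen. The members and lists were chosen with earlier results of these data known. Alternatives are given at the end. No test was made.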

Additional observations from a re-analysis of the deposited data

How the results depend on the processing

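The number of regions in the windows, 60 with 29 of them in all libraries, followed the window, by construction: it was 30 with 16 at 10 kb, 93 with 45 at 100 kb, and 21 with 12 for the genes and 1 kb to either side. Mean peaks per window and library, 5.47 at 50 kb, were 2.78 at 10 kb and 2.03 for the genes with 1 kb. When peaks under the median score of their list were dropped, fewer peaks remained. There were then 36 regions with 17 in all libraries and 2.92 peaks per window. Members with a peak in or beside the gene in all libraries numbered 6 in place of 8, and pathway genes 50 in place of 59. The share of all protein-coding genes was not computed at this cut, so the 54.5% of the full lists is no background for these counts. No region of Zeb1 was then in all libraries, and shared regions numbered 2 at Tcf4, 1 at Snai2 and 1 at Prrx1. All other alternatives run (equal numbers of highest-scoring peaks, 50% reciprocal overlap, peaks resized to 200 bp, other gene-end windows, regions at ends of other genes left out) kept the summary counts within 1.5 times. Leaving out each library in turn gave 57 to 58 regions, 29 to 35 of them in all 3 remaining libraries, 8 members with a peak in or beside the gene, 4 with one at an outer end, and 59 to 60 pathway genes. Shared regions of Snai1 numbered 5 in place of 3 without the 25000-cell library. No paired analysis was possible because each cell number has 1 library. Depth is unknown, so a missing peak may be signal under the score of 8.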
